A study of Mus musculus with 30 samples.

Results

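Secretory IgA is made by plasma cells beneath the colon epithelium and carried across it by the polymeric immunoglobulin receptor, and 8 genes of this route were followed in colon scrapings of mice under colitis and tumour induction. The genes were chosen by symbol from the deposited counts table, in which all 8 were found among 46078 genes. They were *Jchain*, *Igha*, *Igkc*, *Mzb1*, *Tnfrsf17*, *Derl3* and *Xbp1* on the plasma cell side and *Pigr* on the epithelial side. All mice were wild-type C57BL/6J, 5 to 10 weeks old at the start, with 5 males and 5 females in each of 3 treatments and 1 library per mouse, which made 30 libraries. Vehicle-treated mice received a single saline injection (i.p.) and were killed at 9 weeks. AOM/DSS mice received the carcinogen azoxymethane (AOM) once at 10 mg/kg (i.p.) and then 3 cycles of 2.5% dextran sulfate sodium (DSS), which injures the colon epithelium, in the drinking water, and were killed at 9 or 15 weeks. Because all vehicle mice were killed at 9 weeks, the effects of AOM/DSS and of age or time cannot be told apart in the 15-week values, and both AOM/DSS times were compared with the same vehicle libraries.

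As background, a plasma cell is the antibody-secreting end stage of the B cell lineage. In the colon most plasma cells reside in the lamina propria and make IgA, in which the heavy chain encoded by *Igha* pairs with a light chain, usually the kappa chain encoded by *Igkc*, and in which the J chain encoded by *Jchain* joins IgA units into polymers. Mzb1 is a chaperone of the endoplasmic reticulum that assists immunoglobulin folding and J chain assembly. Derl3 is part of the machinery that removes misfolded proteins from that compartment, and Xbp1 is the transcription factor of the unfolded protein response on which secretory cells rely, goblet cells included. *Tnfrsf17* encodes BCMA, a receptor for survival signals of plasma cells. *Pigr* encodes the receptor that enterocytes place on their basolateral side, where it binds polymeric IgA through the J chain, carries it to the lumen and releases it with the secretory component.

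Positions are those of GRCm38 (mm10), the build of the authors' alignment: *Jchain* at chr5:88519809-88527891 (minus strand), *Igha* at chr12:113254830-113260236 (minus), *Igkc* at chr6:70726435-70726966 (plus), *Tnfrsf17* at chr16:11313812-11320074 (plus), *Derl3* at chr10:75893398-75895941 (plus), *Xbp1* at chr11:5520659-5525893 (plus) and *Pigr* at chr1:130826684-130852249 (plus). *Igkc* overlaps 1 other annotated gene on the same strand, RP23-435I4.11, so reads of that segment may not all have been counted for *Igkc*.

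The promoters of *Jchain*, *Derl3* and *Pigr* are shown because these genes stand for the antibody polymer, the secretory machinery and the epithelial transporter. RefSeq (GRCm38.p6) windows of 300 bases, from 250 before to 50 after the transcription start, were matched for 5 of the 8 genes by symbol (*Jchain*, *Tnfrsf17*, *Derl3*, *Xbp1* and *Pigr*). Capitals mark matches, on either strand, to the E-box CACGTG, the interferon regulatory factor core AANNGAAA, the CCAAT box or the endoplasmic reticulum stress element, in which a CCAAT box is followed after 9 bases by CCACG. The element therefore always overlaps a CCAAT box, and the E-box reads the same on both strands. The windows lie at chr5:88527848-88528147 (minus strand), chr10:75893148-75893447 (plus) and chr1:130826434-130826733 (plus), and read 5′ to 3′ along the gene.
Jchain: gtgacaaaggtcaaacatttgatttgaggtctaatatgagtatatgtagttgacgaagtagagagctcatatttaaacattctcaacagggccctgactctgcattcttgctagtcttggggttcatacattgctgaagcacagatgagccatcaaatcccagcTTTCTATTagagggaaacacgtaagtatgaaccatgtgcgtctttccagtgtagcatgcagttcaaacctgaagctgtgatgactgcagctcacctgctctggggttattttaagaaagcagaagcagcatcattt
Derl3: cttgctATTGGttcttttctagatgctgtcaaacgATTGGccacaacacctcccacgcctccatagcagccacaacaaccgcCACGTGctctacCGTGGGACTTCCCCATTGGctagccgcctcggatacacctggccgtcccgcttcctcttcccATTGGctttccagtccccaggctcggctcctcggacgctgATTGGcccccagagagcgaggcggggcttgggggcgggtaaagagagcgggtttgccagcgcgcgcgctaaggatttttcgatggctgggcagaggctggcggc
Pigr: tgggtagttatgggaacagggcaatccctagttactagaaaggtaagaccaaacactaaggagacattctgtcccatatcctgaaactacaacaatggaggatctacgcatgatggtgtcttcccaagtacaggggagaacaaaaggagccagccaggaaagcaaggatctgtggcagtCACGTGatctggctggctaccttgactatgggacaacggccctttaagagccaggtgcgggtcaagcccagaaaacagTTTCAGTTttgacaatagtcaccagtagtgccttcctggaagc

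*Derl3* held 1 endoplasmic reticulum stress element, beginning at base -156 from the start, an E-box at -168 and 5 CCAAT boxes. That element occurred in 39 of 32851 RefSeq windows of the same length (0.119%), the E-box in 7.15%, the interferon regulatory factor core in 23.9% and the CCAAT box in 37.4%. *Pigr* held an E-box at -71 and an interferon regulatory factor core at +8. *Jchain* and *Tnfrsf17* each held 1 such core, at -86 and -101, and *Xbp1* held none of the 4 motifs in its window. These are matches of letters, and factor binding was not measured here.

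Depth ran from 9265804 to 30806392 counts per library, and 16261 genes, all 8 members among them, passed the filter on low counts. The epithelial label held: the defining markers *Epcam*, *Cdh1* and *Vil1* had median CPM (counts scaled to library size) of 1416, 1384 and 851 in vehicle libraries, and the sum of 12 epithelial markers ran from 10812 to 20446 CPM over all 30. The scrapings also carried lamina propria cells. The sum of 10 B cell markers ranged from 3.22 to 61.8 CPM in vehicle, from 8.17 to 128 at 9 weeks and from 3.02 to 103 at 15 weeks, and none of these markers was at 0 in any library. The sum of 8 smooth muscle markers was 5809 CPM in male vehicle replicate 1 and at most 280.1 CPM in every other library, so that library stood apart. Female 9-week replicate 5 also stood apart from its treatment. Its absorptive colonocyte markers summed to 24653 CPM, against at most 8302 in the other 9-week libraries. Its neutrophil markers summed to 10.8 CPM, against at least 84.7 in the others. In vehicle libraries the same sum ran from 12.7 to 179 CPM (median 99.1), so a low sum is not read here as a lack of neutrophils. In such bulk RNA, fewer cells of a type and less RNA per cell cannot be told apart.

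The antibody genes were higher at 9 weeks of AOM/DSS than in vehicle, and of the 3, *Jchain* is described in every mouse. In vehicle-treated females its CPM was 132.7, 23.1, 16.5, 62.2 and 35.6 in replicates 1 to 5, and in vehicle-treated males 17.8, 102, 62.9, 115.2 and 226. At 9 weeks of AOM/DSS, females had 440.0, 392, 209, 298 and 73.2 CPM, and males 586, 616, 467, 110.2 and 207. At 15 weeks, females had 28.9, 265, 132, 109.96 and 149.6 CPM, and males 206, 62.6, 43.8, 33.3 and 108.5. The 9-week libraries were the high ones, with 6 of 10 above the highest vehicle library and all 10 above the vehicle median, although the groups overlapped. At 15 weeks 1 of 10 exceeded every vehicle library and 7 of 10 the vehicle median.

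*Igha*, the IgA heavy chain, spanned a still wider range. Its CPM in replicates 1 to 5 was 535, 84.9, 75.8, 206 and 127 in vehicle-treated females and 75.1, 432, 196, 385 and 699 in vehicle-treated males. At 9 weeks it was 1323, 1467, 553, 1426 and 345 in females and 2156, 3427, 2338, 518 and 1013 in males. At 15 weeks it was 141.7, 1628, 406, 412 and 762 in females and 1092, 261, 200.3, 185 and 806 in males. Of the 10 libraries at 9 weeks, 7 lay above the highest vehicle library, and of those at 15 weeks 4 did.

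*Igkc*, the kappa light chain, followed the heavy chain. The vehicle libraries held 54.0 to 614 CPM (median 185), those at 9 weeks 317 to 2332 (median 1004) and those at 15 weeks 109 to 1074 (median 340.3). At 9 weeks 7 of 10 libraries were above the highest vehicle library. The lowest 9-week libraries for all 3 antibody genes were female replicate 5 and male replicate 4.

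Male and female changes were averaged and tested from the counts with edgeR's quasi-likelihood test, with Benjamini-Hochberg adjustment over all tested genes. Calls required an adjusted p under 0.05, an absolute log2 fold change over 0.4 and a mean FPKM (fragments scaled to transcript length and depth) of 1 or more in a compared group. At 9 weeks against vehicle, *Igha* rose 5.13-fold (log2 2.36 ± 0.49 (SE), 95% interval 1.35 to 3.37, edgeR adjusted p = 0.00133). *Igkc* rose 4.71-fold (log2 2.24 ± 0.47, interval 1.27 to 3.20, edgeR adjusted p = 0.00146), and *Jchain* rose 4.45-fold (log2 2.15 ± 0.47, interval 1.19 to 3.12, edgeR adjusted p = 0.00203). With *Mzb1*, 4 of the 8 genes were called, all higher, against 8.29% of all tested genes (5.51% higher and 2.78% lower). These 4 genes varied together over the 30 libraries (Pearson's r from 0.945 to 0.992), so they are not 4 independent results. The 8 genes were also chosen with earlier results of these data known. The median log2 fold change was 1.72 over the 8 genes and -0.02 over all tested genes. These 4 calls held in each of the 11 alternative analyses and with each of the 20 compared libraries left out in turn.

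**Figure D1:**
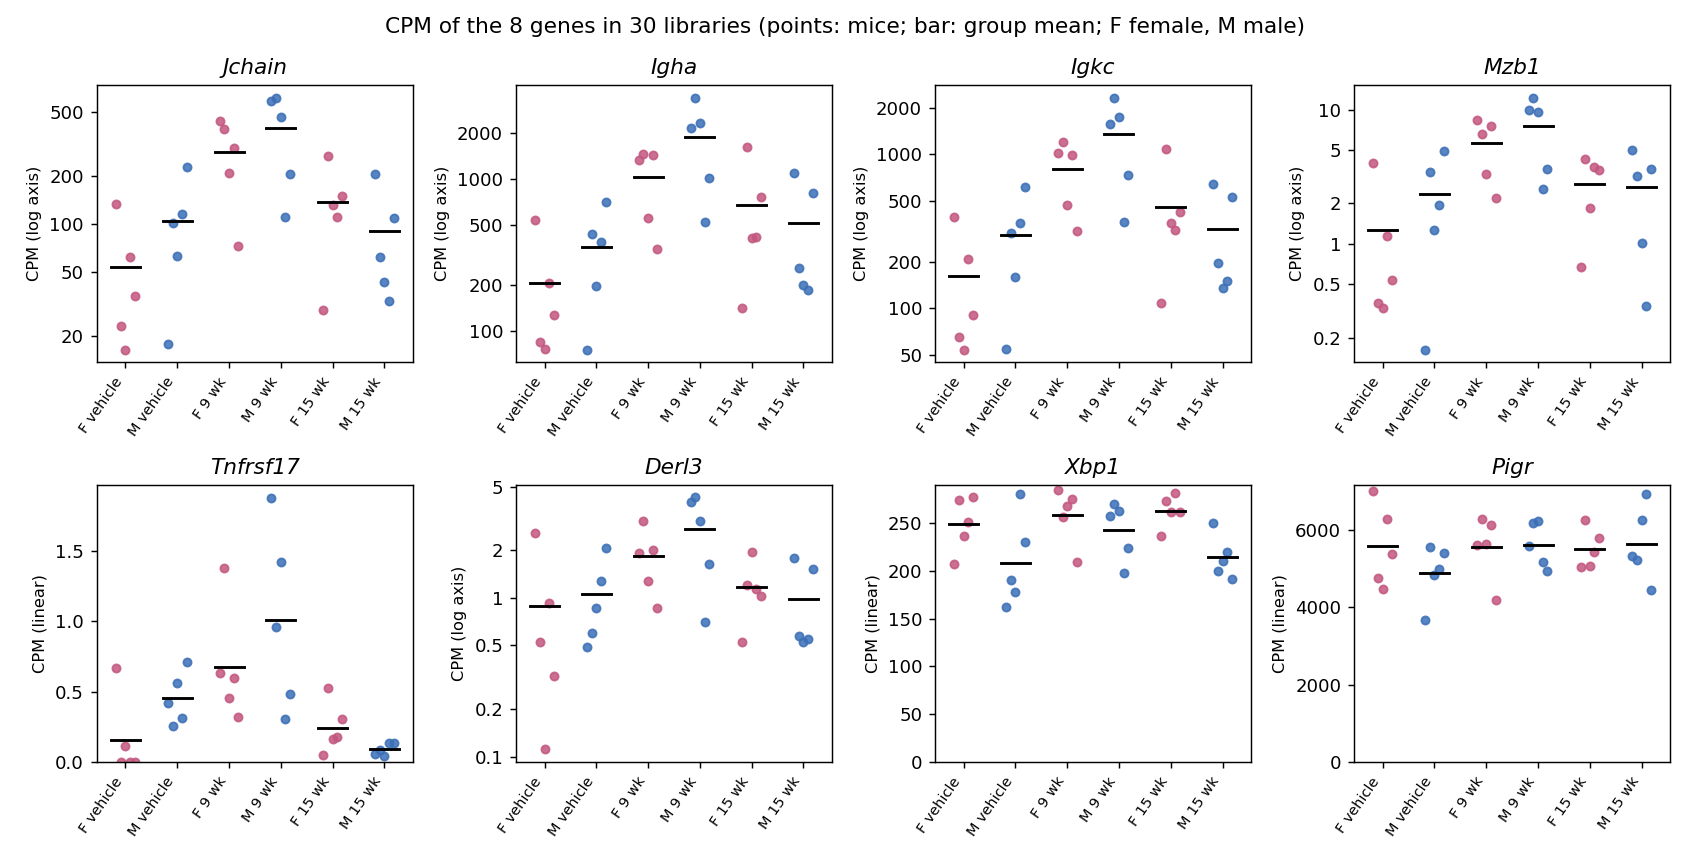
CPM of each of the 8 genes in the 30 libraries, by sex and treatment, 1 point per mouse with a bar at the mean of 5 mice. Axes are logarithmic except where marked linear. *Jchain*, *Igha* and *Igkc* are highest at 9 weeks of AOM/DSS with overlap between groups, whereas *Pigr* lies between 3685 and 7012 CPM in every group.

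Genes of the secretory machinery were far less abundant than the antibody genes and varied in their change. *Mzb1*, the chaperone, lies at chr18:35647266-35649367 (minus strand). Its vehicle libraries held 0.163 to 4.89 CPM (median 1.21), those at 9 weeks 2.20 to 12.3 (median 7.08) and those at 15 weeks 0.344 to 5.04 (median 3.38). At 9 weeks 6 of 10 libraries lay above all vehicle libraries, and *Mzb1* rose 3.73-fold (log2 1.90 ± 0.52 (SE), interval 0.84 to 2.96, edgeR adjusted p = 0.0113). *Derl3*, the degradation factor, had a median of 0.730 CPM in vehicle, 1.95 at 9 weeks and 1.08 at 15 weeks, with a highest library of 2.54, 4.28 and 1.93. Its 9-week difference, log2 1.18 ± 0.42 (SE), missed the threshold (edgeR adjusted p = 0.0516).

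*Tnfrsf17*, the survival receptor, sat at the limit of detection. It had 0 counts in 3 vehicle-treated females and 3 to 19 counts in the other vehicle libraries, 6 to 53 counts at 9 weeks and 1 to 10 counts at 15 weeks. The corresponding ranges were 0 to 0.709, 0.307 to 1.88 and 0.0403 to 0.525 CPM, and 9 of the 10 libraries at 15 weeks lay below every 9-week library. The log2 difference was 1.53 at 9 weeks against vehicle (edgeR adjusted p = 0.0345) and -2.44 at 15 against 9 weeks (edgeR adjusted p = 0.016), but the gene stayed under the FPKM minimum and was not called.

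*Xbp1*, by contrast, was abundant and even across the libraries, from 162.5 to 284 CPM, with medians of 233 in vehicle, 260.2 at 9 weeks and 243 at 15 weeks. The highest library held 1.75 times the lowest, where for *Jchain* this ratio was 37.4 and for *Igha* 45.6. The 9-week difference was log2 0.14 (interval -0.04 to 0.32, edgeR adjusted p = 0.313) and the 15-week difference 0.06 (edgeR adjusted p = 0.659).

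*Pigr*, the transporter, varied little between libraries, with the highest at 1.90 times the lowest. Its CPM in replicates 1 to 5 was 7012, 4758, 4466, 6283 and 5379 in vehicle-treated females and 3685, 5571, 4852, 4987 and 5421 in vehicle-treated males. At 9 weeks it was 5614, 6284, 5649.6, 6135 and 4189.7 in females and 5588, 6193, 6237, 5175 and 4946 in males. At 15 weeks it was 5057, 6270.5, 5063, 5431 and 5805 in females and 5326, 5227, 6254, 6926 and 4445 in males. Both extremes of the whole set, 3685 and 7012, were vehicle libraries, and the lower one was the library with high smooth muscle markers. The means were 5241 ± 934 (SD, n = 10) in vehicle, 5601 ± 676 at 9 weeks and 5580.5 ± 733 at 15 weeks.

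The *Pigr* difference from vehicle was log2 0.10 at 9 weeks (95% interval -0.11 to 0.31, edgeR adjusted p = 0.575) and 0.09 at 15 weeks (interval -0.12 to 0.30, edgeR adjusted p = 0.539). Between 15 and 9 weeks it was -0.01 (interval -0.21 to 0.20, edgeR adjusted p = 0.982). On TPM limma called *Pigr* lower at 15 than at 9 weeks, by -0.65 on the log2(TPM + 1) scale (adjusted p = 0.0238), where the median over all genes of mean TPM at least 1 also shifted, by -0.51. With sexes averaged no edgeR interval for *Pigr* reached beyond 0.31 on the log2 scale, while the lowest bound among the 9-week changes of *Jchain*, *Igha* and *Igkc* was 1.19.

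At 15 weeks the median CPM of *Jchain*, *Igha*, *Igkc*, *Mzb1* and *Derl3* lay between the vehicle and 9-week medians, and that of *Tnfrsf17* below both (0.284 in vehicle, 0.615 at 9 weeks and 0.137 at 15 weeks). Against vehicle, 0 of the 8 genes were called, where 7.35% of all tested genes were (3.46% higher and 3.89% lower), and the median log2 fold change was 0.35 over the 8 genes and -0.03 over all tested genes. *Igha* differed by log2 1.11 (interval 0.13 to 2.08, edgeR adjusted p = 0.101), *Igkc* by 0.82 (edgeR adjusted p = 0.203), *Mzb1* by 0.64 (edgeR adjusted p = 0.382) and *Jchain* by 0.57 (edgeR adjusted p = 0.388). At an unadjusted p under 0.05, 1 of the 8 genes passed by edgeR, *Igha*, and DESeq2 also called 0 of the 8. With the mesenchyme score (mean level of connective tissue markers) as a covariate 2 were called, *Igha* (1.64, edgeR adjusted p = 0.021) and *Igkc* (1.32, edgeR adjusted p = 0.0492).

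Between 15 and 9 weeks 1 of the 8 genes was called, *Jchain*, lower by log2 1.59 at 15 weeks, against 2.32% of all tested genes (1.91% lower). Its log2 fold change was -1.59 ± 0.46 (SE), with an interval from -2.53 to -0.64 (edgeR adjusted p = 0.0454). *Igkc* differed by -1.42 (edgeR adjusted p = 0.0664), *Igha* by -1.25 (edgeR adjusted p = 0.112), *Mzb1* by -1.25 (edgeR adjusted p = 0.131) and *Derl3* by -1.05 (edgeR adjusted p = 0.125). All 10 libraries at 15 weeks had less *Jchain* than the 9-week median, and 4 had less than every 9-week library. The *Jchain* call was lost on leaving out any 1 of 15 libraries (female 9-week replicates 1 to 4, male 9-week 1 to 3, female 15-week 1 to 4 or male 15-week 2 to 5), with values from -1.76 to -1.44 and edgeR adjusted p from 0.0516 to 0.0903. Mesenchyme markers moved with this comparison: the sum of 11 such markers ran from 61.7 to 433 CPM at 9 weeks and from 26.7 to 240.2 at 15 weeks, and 3 of the 11 were called lower. With the mesenchyme score as a covariate *Jchain* differed by -0.59 (edgeR adjusted p = 0.663), and the part of mesenchyme in the result was not otherwise tested.

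**Figure D2:**
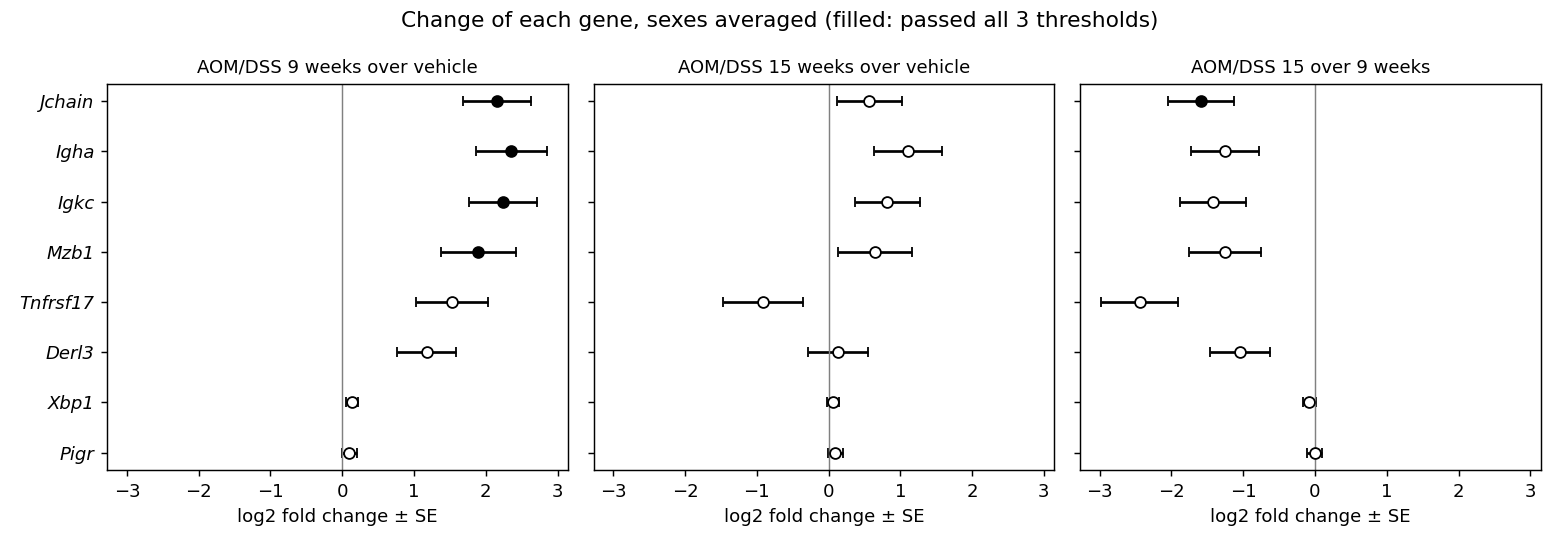
Log2 fold change ± SE of the 8 genes in the 3 comparisons with sexes averaged (edgeR), filled where all 3 thresholds were passed. *Igha*, *Igkc*, *Jchain* and *Mzb1* are filled at 9 weeks against vehicle, none at 15 weeks against vehicle and *Jchain* at 15 against 9 weeks, and *Pigr* lies within 0.10 of 0 in all 3.

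How much antibody message faced how much transporter message was compared on TPM, which accounts for gene length. In all 10 vehicle libraries *Pigr* exceeded *Igkc*, whose TPM was 0.239 of that of *Pigr* at the median and 0.829 at most. At 9 weeks *Igkc* exceeded *Pigr* in 7 of 10 libraries, with a median ratio of 1.24 and a range from 0.514 to 2.76, and at 15 weeks in 1 of 10, with a median ratio of 0.468. *Igha* exceeded *Pigr* in 0, 3 and 0 of 10 libraries in the same order, with median ratios of 0.127, 0.797 and 0.258. *Jchain* stayed below *Pigr* in every library, at median ratios of 0.0315, 0.151 and 0.0608. On CPM, which is not scaled to length, *Pigr* (3685 or more) exceeded *Igkc* (2332 or less) and *Igha* (3427 or less) in every library.

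Ranked by TPM among all genes of a library, *Igkc* stood at a median rank of 207 in vehicle, 24.5 at 9 weeks and 112 at 15 weeks. *Igha* stood at 389.5, 38.5 and 218.5, and *Pigr* at 35, 31 and 36. At 9 weeks *Igkc* and *Igha* were thus near the rank of *Pigr*, while *Jchain*, at 1756.5, 304.5 and 1159, stayed below it. TPM depends on what else a library holds: the mitochondrial gene *mt-Nd4l* was the highest entry in all 30 libraries, and the 10 highest genes made up 61.7% to 88.2% of all TPM. Over 11367 genes of mean TPM at least 1, the median log2(TPM + 1) difference was 0.26 at 9 weeks against vehicle and -0.51 at 15 against 9 weeks. Relative to these shifts *Pigr* differed by 0.17 and -0.15, *Jchain* by 2.29 and -1.72.

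The ratio of *Jchain* to *Pigr* CPM within each library was tested by exact two-sided permutation of treatment within each sex. Its mean log2 value was -6.51 ± 1.15 (SD, n = 10) in vehicle, -4.31 ± 0.89 at 9 weeks and -5.95 ± 1.15 at 15 weeks. The libraries ran from -8.08 to -4.58 in vehicle and from -5.84 to -3.25 at 9 weeks, so the 2 groups overlapped. The ratio was higher at 9 weeks than in vehicle by 2.21 (exact permutation p = 0.000346, adjusted p = 0.00312 over 9 such tests). It was lower at 15 than at 9 weeks by 1.64 on the log2 scale, a difference of -1.64 (exact permutation p = 0.00318, adjusted p = 0.0143). At 15 weeks against vehicle the difference was 0.57 (exact permutation adjusted p = 0.371). The 2 differences that passed did so with each compared library left out in turn. Because *Pigr* differed little in these comparisons, they largely restate the change of *Jchain* and are not separate results. They were adjusted over 9 tests, whereas the *Jchain* call at 15 against 9 weeks, adjusted over all tested genes, was lost without single libraries.

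Across individual mice, libraries with more *Pigr* than their group mean tended to have more antibody message. A slope on the log2 CPM of *Pigr*, added to the group means and fitted to every other tested gene, was positive and called (adjusted p under 0.05) for 3 of the 7 plasma cell genes, against 3.51% of tested genes (1.41% with a positive slope). The slope was 3.44 ± 0.90 (SE) log2 units per log2 unit of *Pigr* for *Jchain* (edgeR adjusted p = 0.0350), 3.32 for *Igha* (edgeR adjusted p = 0.0403) and 3.22 for *Igkc* (edgeR adjusted p = 0.0397). It was 3.58 for *Mzb1* (edgeR adjusted p = 0.052), 2.61 for *Tnfrsf17* (edgeR adjusted p = 0.125), 2.22 for *Derl3* (edgeR adjusted p = 0.127) and 0.33 for *Xbp1* (edgeR adjusted p = 0.306).

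The slope calls lay near the threshold. Leaving out 1 library moved the *Jchain* slope between 3.01 and 4.03. The *Jchain* call was lost without any 1 of 8 libraries (female vehicle replicates 1 to 4, male vehicle 5, female 9-week 5, female 15-week 1 or male 15-week 1), with slopes from 3.10 to 3.39 and edgeR adjusted p up to 0.157. The *Igkc* call was lost without any of these or of female or male 9-week replicate 2, 10 libraries in all, and the *Igha* call without any of those 10 or of female vehicle 5, female 9-week 4, male 9-week 4, or female 15-week 2 or 5. With 3 libraries left out, chosen after the data were seen (male vehicle 1 with its high smooth muscle markers, female vehicle 5 with the lowest depth and female 9-week 5 with low *Pigr* for its group), 0 of the 7 were called and the *Jchain* slope was 2.60 (edgeR adjusted p = 0.214). The mouse with the most *Pigr* among males at 15 weeks, replicate 4 with 6926 CPM, had the least *Jchain*, 33.3 CPM, so the relation did not hold in every group. Cell make-up differed too. In each female group the library with the highest sum of absorptive colonocyte markers had the least *Jchain* and *Pigr*. These were vehicle replicate 3 (22519 CPM), 9-week replicate 5 (24653) and 15-week replicate 1 (25924). In males such a library had the least *Jchain* at 9 weeks, but not in vehicle or at 15 weeks. The part of colonocyte content in the slope was not tested.

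Over all 30 libraries Pearson's r of *Jchain* with *Pigr* on the log2 scale was 0.464 (permutation p = 0.00976, adjusted p = 0.0161 over 28 relations) and Spearman's rho 0.454 (permutation p = 0.0124, adjusted p = 0.0213). Within groups, on deviations from group means, r was 0.591 (permutation p = 0.00234, adjusted p = 0.00468) and rho 0.552 (permutation p = 0.00517, adjusted p = 0.0111). Without the 2 libraries farthest from the *Pigr* median r was 0.356 over all libraries and 0.442 within groups. Among themselves *Jchain*, *Igha*, *Igkc*, *Mzb1*, *Derl3* and *Tnfrsf17* had r from 0.663 to 0.992 over all libraries and from 0.507 to 0.988 within groups in their 15 pairs. *Xbp1* had r from 0.0459 to 0.434 with these 6. The libraries share depth and composition, so these values describe covariation within the same samples.

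**Figure D3:**
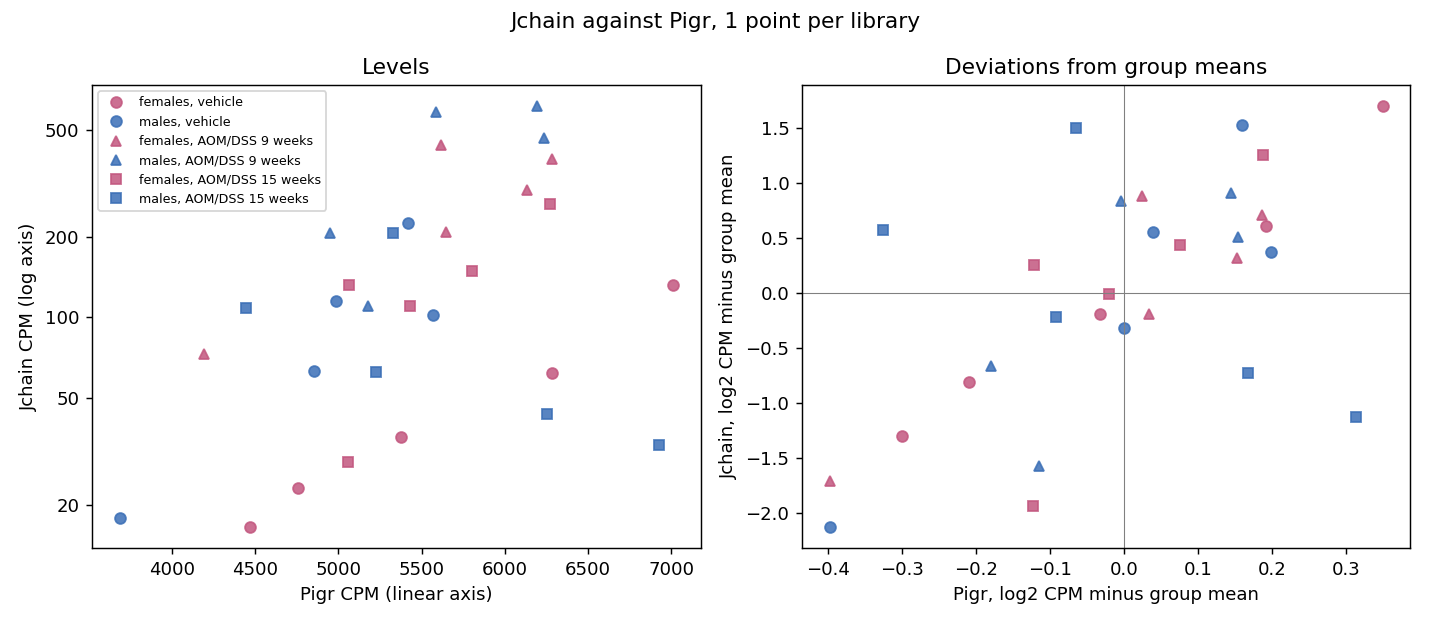
*Jchain* against *Pigr*, 1 point per library, as CPM (left, logarithmic vertical axis) and as deviations of log2 CPM from the mean of each group of 5 (right). Pearson's r on the log2 scale is 0.464 over the 30 libraries and 0.591 on the deviations.

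IgA dominated the heavy-chain message in every library. Of the counts on 8 heavy-chain constant genes, *Igha* took 90.1% ± 3.45 (SD, n = 10) in vehicle, 93.9% ± 2.20 at 9 weeks and 91.0% ± 6.06 at 15 weeks, with a lowest library of 77.6% among males at 15 weeks. *Ighm*, the IgM heavy chain, took 5.09%, 2.33% and 3.86% on average. The *Igha* share was 3.74 percentage points higher at 9 weeks than in vehicle (exact permutation p = 0.0129, adjusted p = 0.0378). That call was lost without female vehicle replicate 2 or 4, male vehicle 4, or male 9-week 1 or 5 (differences from 3.18 to 3.57). It was also lost on TPM.

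Among light chains *Igkc* took 93.3% ± 3.23 (SD, n = 10) of the counts on 4 constant genes in vehicle, 94.5% ± 1.91 at 9 weeks and 89.4% ± 6.80 at 15 weeks. The 15-week share was 5.11 points below the 9-week share, a difference of -5.11 (exact permutation p = 0.0168, adjusted p = 0.0378). *Iglc1*, a lambda chain, took 2.77%, 3.43% and 7.04% on average and reached 19.9% in male 15-week replicate 1. The *Igkc* difference missed the threshold on TPM and without any 1 of 13 libraries (female 9-week replicates 1, 3, 4 or 5, male 9-week 1, 3, 4 or 5, female 15-week 3 or 5, or male 15-week 1, 4 or 5), with values from -5.29 to -3.43.

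**Figure D4:**
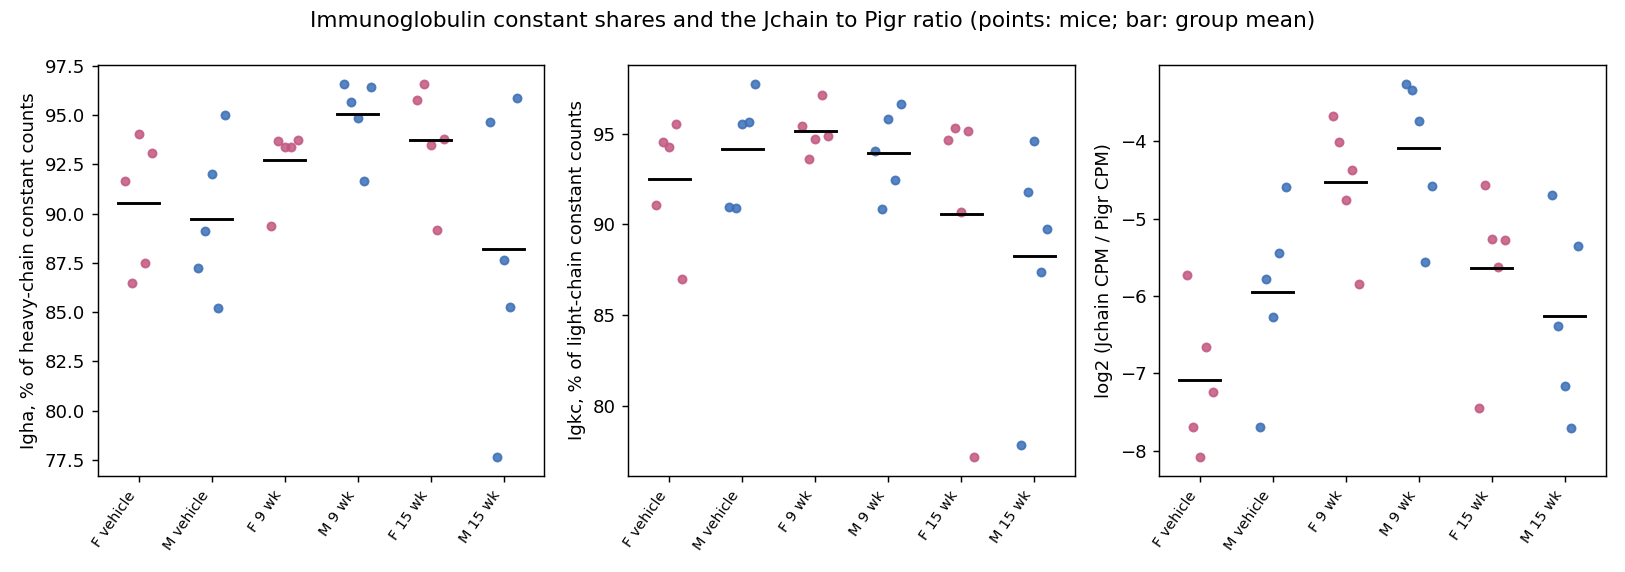
*Igha* share of heavy-chain constant counts, *Igkc* share of light-chain constant counts (both in percent) and log2 ratio of *Jchain* to *Pigr* CPM, 1 point per mouse and a bar at the mean of 5 mice. The mean ratio is -6.51 in vehicle, -4.31 at 9 weeks and -5.95 at 15 weeks over both sexes.

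The 9-week rise was also tested in each sex. In males *Igha* (log2 2.40, edgeR adjusted p = 0.028) and *Igkc* (2.17, edgeR adjusted p = 0.0363) were called, 2 of the 8 against 7.31% of all tested genes (4.42% higher), and *Jchain* was not (1.92, edgeR adjusted p = 0.0617). In females *Jchain* (2.38, edgeR adjusted p = 0.0392) and *Igkc* (2.30, edgeR adjusted p = 0.0468) were called, 2 of the 8 against 2.9% of tested genes (2.42% higher), and *Igha* was not (2.31, edgeR adjusted p = 0.0567). The difference between the male and female changes was -0.46 for *Jchain* (interval -2.31 to 1.40, edgeR adjusted p = 0.928), 0.09 for *Igha* (interval -1.83 to 2.01, edgeR adjusted p = 0.992) and -0.13 for *Igkc* (interval -1.97 to 1.72, edgeR adjusted p = 0.986). No difference between the sexes was thus detected, although the intervals were wide.

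The calls within 1 sex depended on single libraries. Both female calls were lost without any 1 of 7 libraries, vehicle replicates 2 to 5 or 9-week replicates 1, 2 or 4 (log2 2.15 to 2.41 for *Jchain*, edgeR adjusted p from 0.0746 to 0.113). In males the *Igha* call was lost without vehicle replicate 1 or 3 or 9-week replicate 2 or 3 (2.08 to 2.31), and the *Igkc* call without any of these, vehicle 2 or 9-week 1 (1.88 to 2.19).

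At 15 weeks 0 of the 8 genes were called against vehicle in either sex, against 8.92% of tested genes in males (4.37% higher, 4.55% lower) and 0.0984% in females (0.0861% higher, 0.0123% lower). At an unadjusted p under 0.05, *Jchain*, *Igha* and *Igkc* passed in females and *Tnfrsf17* in males by edgeR, and DESeq2 gave 0 calls. The log2 values in females were 1.70 for *Igha* and 1.34 for *Jchain* (edgeR adjusted p = 0.375 and 0.455), and in males 0.51 and -0.21 (edgeR adjusted p = 0.639 and 0.858). The interaction at 15 weeks was -1.55 for *Jchain* (interval -3.42 to 0.32, edgeR adjusted p = 0.74). Males and females compared directly gave 0 calls among the 8 genes in vehicle, at 9 weeks and at 15 weeks, against 0.178% of tested genes (0.141% higher in males, 0.0369% lower), 0.0492% (0.043% and 0.00615%) and 0.184% (0.123% and 0.0615%), and both interactions gave 0 calls in all genes (edgeR). At an unadjusted p under 0.05 the members that passed these 5 tests were *Xbp1*, lower in males by log2 0.26 in vehicle and by 0.29 at 15 weeks (log2 fold changes -0.26 and -0.29), and *Tnfrsf17* in the 15-week interaction (-2.69), and DESeq2 gave 0 calls among the members.

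For each list below, the share called over all tested genes was 8.29% at 9 weeks (5.51% higher, 2.78% lower). At 15 weeks it was 7.35% (3.46% higher, 3.89% lower). How many of all tested genes had every 9-week library above every vehicle library was not counted, so such separation is only described below. Of 19 tested plasma cell genes outside the 8, 3 rose at 9 weeks, 0 fell and 16 did not pass, with a median log2 fold change of 0.77. *Prdm1*, which encodes the master regulator Blimp-1, rose by log2 1.78 (vehicle 1.49 to 7.32 CPM, 9 weeks 7.57 to 20.1), so that the groups did not overlap. *Pou2af1*, a B cell coactivator, rose by 1.45 (edgeR adjusted p = 0.0214), and *Cd38* by 0.82 (edgeR adjusted p = 0.000152). At 15 weeks 2 of the 19 were higher and 1 lower than in vehicle, *Prdm1* by 1.12, *Cd38* by 0.43 and *Fam46c* by -0.85. *Sdc1*, which was named after its values were seen, encodes the plasma cell marker CD138 and is also made by epithelium. It had 247, 267 and 293 CPM on average in vehicle, at 9 and at 15 weeks, and was not called.

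Of 9 other immunoglobulin constant genes tested, 5 rose and 0 fell at 9 weeks, with a median of 1.46. The IgG genes *Ighg2c* and *Ighg2b* rose by log2 4.51 and 3.44, from medians of 0.0840 and 1.93 CPM to 5.46 and 24.6 CPM, and *Iglc1* by 2.98. The other called genes, named after their values were seen, were *Iglc2* (1.46) and *Ighm*, the IgM heavy chain (1.27). At 15 weeks 3 of the 9 were higher than in vehicle, *Iglc1* by 3.01, *Ighg2c* by 2.63 and *Ighg2b* by 2.19. For *Ighg2b* every 9-week library (8.60 to 69.6 CPM) exceeded every vehicle library (0.390 to 6.08 CPM).

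Of 20 tested genes that guide IgA switching, homing and survival of plasma cells, 5 rose and 0 fell at 9 weeks, with a median of 0.96. *Aldh1a3*, an enzyme that makes retinoic acid, rose by log2 2.37. *Cxcr4*, the receptor that retains plasma cells near their niche, rose by 1.24, and *Itgb7*, a subunit of the gut-homing integrin, by 1.19. At 15 weeks *Tnfsf13b*, which encodes the survival factor BAFF, was higher by 0.60 and *Cxcl12*, the ligand of *Cxcr4*, lower (-1.35), with 18 of the 20 not passing.

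Of 19 tested signals and factors known to act on *Pigr*, 4 rose and 0 fell at 9 weeks, with a median of 0.06. *Tnf*, the inflammatory cytokine, rose by log2 3.16 (0.683 to 2.84 CPM in vehicle, 6.72 to 31.1 at 9 weeks), and *Il4ra*, a receptor subunit for interleukins 4 and 13, by 1.59. For both genes every 9-week library lay above every vehicle library. At 15 weeks 3 of the 19 were higher than in vehicle, among them *Tnf* by 1.67 and *Il4ra* by 1.05. *Pigr* itself, over the same comparisons, had differences of 0.10 and 0.09. *Il17a*, which was named after its values were seen, had 0 counts in all 10 vehicle libraries and reached 2.51 CPM at 9 weeks, under the FPKM minimum. Among the 4 tested receptors for IgA or IgM other than *Pigr*, 0 were called at either time (edgeR).

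Of 24 genes of the unfolded protein response and secretion, 3 rose and 0 fell at 9 weeks, *Sec61b* by log2 0.55, *Manf* by 0.54 and *Sdf2l1* by 0.48, with a median of 0.16. The same 3 were called at 15 weeks, by 0.49, 0.50 and 0.50. Sec61b is part of the channel into the endoplasmic reticulum, and Manf and Sdf2l1 are stress-induced proteins inside it.

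Markers of other cells moved beside the antibody genes at 9 weeks. Of 6 neutrophil markers 4 rose, with *S100a8*, *S100a9* and *Retnlg* each at a median of 0 CPM in vehicle and at 5.08, 8.92 and 0.618 CPM at 9 weeks, and of 8 T cell markers 2 rose, *Trac* by log2 1.57 and *Cd3g* by 1.06. Of 10 B cell markers 0 were called, with a median of 1.04 and edgeR adjusted p above 0.05 for each. At 15 weeks 4 of 11 mesenchyme and 7 of 8 smooth muscle markers were lower than in vehicle. The log2 fold changes were -2.86 for *Lum*, -1.83 for *Dcn*, -3.49 for *Myh11* and -3.11 for *Actg2*. Male vehicle replicate 1 had the highest vehicle sum of both lists and the highest vehicle value of *Myh11*, 1400 CPM. Its smooth muscle markers summed to 5809 CPM, against a vehicle median of 127.4 and 39.6 to 131.2 at 15 weeks. Its mesenchyme markers summed to 1397.6 CPM, against 547.4 in the next highest vehicle library and 26.7 to 240.2 at 15 weeks. These calls were not tested without that library, so they are not read here as an effect of AOM/DSS. Of the epithelial, colonocyte and goblet lists 1 of 12, 1 of 8 and 1 of 8 were called at 9 weeks: *Krt20* rose by 0.59, *Slc26a2* fell (-0.74) and *Spink4* rose by 0.70. Over all tested genes 8.29% were called at 9 weeks, so 1 call in such a list is near that share. At 15 weeks 2 of the 12 epithelial markers were higher than in vehicle, *Krt20* by 0.71 and *Krt18* by 0.56. The part of these cells in the antibody results was not tested, except that the 4 calls at 9 weeks were kept with the mesenchyme score as a covariate (*Igkc* 1.90, *Jchain* 1.73 and *Mzb1* 1.56 among them).

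Likeness of pattern was measured over the 30 libraries by Spearman's rho of log2 CPM. Of all other tested genes *Igkc* (rho 0.975), *Igha* (0.958) and *Mzb1* (0.934) were the nearest to *Jchain*, and *Derl3* ranked 5. Outside the 8 genes and the immunoglobulin variable segments, which made up 25 of the 50 nearest, *Ly6c2* (0.934), *Glipr1* (0.864), *Irf4* (0.847), *Pilrb1* (0.846) and *Pou2af1* (0.846) came next. *Irf4*, a transcription factor of plasma cells, had a median of 1.14 CPM in vehicle and 4.49 at 9 weeks. *Tnfrsf17* ranked 80, *Pigr* 1871 and *Xbp1* 2204 of 16261.

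Of the 50 genes nearest to *Pigr* 6 were immunoglobulin variable segments. Outside these the nearest were *Pygl*, a glycogen phosphorylase (rho 0.810), *Rab15*, a small GTPase of vesicle transport (0.735), *Gm11131* (0.730), *Dennd2d* (0.726) and *Gm15848* (0.708), and *Jchain* ranked 374.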

How the data were processed

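Colon epithelium scraped from 30 mice (6 groups of 5, by sex and treatment) was sequenced by the authors as stranded poly(A) RNA, aligned with STAR to GRCm38 (mm10), and duplicates were not removed. The authors deposited read counts per gene from featureCounts, and FPKM and TPM per gene and library from StringTie. In the StringTie files 11 to 20 repeated gene lines per library were summed. Library totals ran from 9265804 to 30806392 counts. The authors reported a high level of duplicate reads, so distinct reads were fewer than these totals.

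Counts of 46078 genes were filtered with filterByExpr (minimum count 10), scaled by TMM (0.832 to 1.10) and fitted in edgeR 4.0.16 (R 4.3.3) with quasi-likelihood over all 6 groups, with Benjamini-Hochberg adjustment over 16261 genes. CPM were computed on the TMM-scaled library sizes, and log2 CPM with a prior count of 2. The mesenchyme score was the mean log2 CPM of 11 markers. Sexes were averaged, and each sex, the sex by treatment interaction and a slope on *Pigr* were also fitted. Shares and ratios were tested by exact permutation within sex over 63504 splits, and correlations by 100000 permutations (scipy 1.17.1). Named genes were the 8 members, from each list up to 3 called genes per direction with the largest 9-week change and up to 2 at 15 weeks, and the 5 genes nearest in pattern to *Jchain* and to *Pigr*, immunoglobulin variable segments left out. A listed gene that this rule names is not reported here. The alternatives were DESeq2 1.42.0, limma 3.58.1 on TPM, other scalings, filters and covariates, a replicate block and leaving out each library. Members and lists were chosen with earlier results of these data known. In data simulated for the averaged 9-week comparison over 16039 genes, 94% of genes changed by log2 1 and 99% of those changed by log2 2 were recovered, and 4.46% of calls were false. That simulation gave every gene the same dispersion and changed only genes above an FPKM floor. The antibody genes varied more between mice, so these rates do not apply to them or to the members that were not called. The edgeR p-values set a change against the spread between mice. The permutation p-values place a value among those from shuffled mice.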

Additional observations from a re-analysis of the deposited data

Results flagged for a closer look

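In groups of 5 mice, a library was listed when its gap to the nearest other, divided by the range of the group, exceeded 0.71. Of 66 groups checked 3 held such a library, where chance gives about 1 in 20. *Pigr* was low in female 9-week replicate 5, at 12.03 log2 CPM against a group median of 12.46 (gap over range 0.722), and that library was also the lowest of its group in *Jchain*. The *Igha* share of heavy-chain constant counts was 89.4% in female 9-week replicate 1 against a median of 93.4% (0.923). The *Igkc* share of light-chain constant counts was 77.2% in female 15-week replicate 5 against a median of 94.7% (0.745).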

How the results depend on the processing

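The 4 calls at 9 weeks with sexes averaged stayed at 4 or 5 under all alternatives and leave-one-out fits. The number of members called at 15 against 9 weeks (1 as reported) was 2 by adjusted p alone, on the compared libraries in edgeR and by DESeq2, 0 with no filter, the replicate block or the mesenchyme covariate, 7 by limma on TPM with either pseudocount (1 or 0.1), *Pigr* (-0.65 with both) and *Xbp1* (-0.71 and -0.72) among them, and 4 without the 3 libraries left out after seeing the data (male vehicle 1, female vehicle 5, female 9-week 5). At 15 weeks against vehicle it was 2 with the mesenchyme covariate (0 as reported). In females at 9 weeks (2 as reported) it was 1 with no filter or the replicate block, 0 with the mesenchyme covariate or on the compared libraries, and 4 by limma on TPM + 0.1 or DESeq2. In males (2 as reported) it was 1 with the replicate block, 4 with the mesenchyme covariate and 0 without the 3 libraries. The slope on *Pigr* (3 as reported) gave 7 on TPM + 1 and 0 without the 3 libraries. On TPM the *Igha* share differed by 2.27 points at 9 weeks and -0.11 at 15 weeks against vehicle, and for the Igkc share of light-chain constant counts, AOM/DSS 15 over 9 weeks, the difference was -5.86 points (exact permutation adjusted p = 0.0514). The cause was not tested.

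No single gene that changed sign passed the thresholds in the fit concerned. For *Pigr*, AOM/DSS 15 over 9 weeks, sexes averaged, gave 0.0089 with immunoglobulin genes left out of library sizes and 0.0014 with no filter. For *Pigr*, AOM/DSS 15 weeks over vehicle, sexes averaged, TPM gave -0.22 with both pseudocounts, and for *Xbp1* -0.25 with both. For Derl3, AOM/DSS 15 weeks over vehicle, sexes averaged, the value was -0.051 without the 3 libraries. The 9-week interaction of *Igha* was -0.019 with the replicate block, -0.12 and -0.13 on TPM and -0.26 without the 3 libraries, and with the mesenchyme covariate it was 0.56 for *Jchain* and 0.75 for *Igkc*.

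Leaving out 1 library gave counts of 0 to 1 at 15 weeks against vehicle, 0 to 2 at 15 against 9 weeks, 0 to 3 in males and 0 to 4 in females at 9 weeks, and 0 to 4 for the slope. Differences of the *Igha* share ran from 3.18 to 4.404, -0.10 to 2.18 and -3.85 to -1.57 (9 weeks, 15 weeks against vehicle, 15 against 9), those of the *Igkc* share from 0.55 to 1.69, -4.66 to -2.19 and -5.90 to -3.43, and the 15-week ratio from 0.35 to 0.79. Against vehicle at 15 weeks *Tnfrsf17* ran from -1.11 to 0.19 and *Derl3* from -0.016 to 0.59, *Pigr* at 15 against 9 weeks from -0.033 to 0.048, and the 9-week interactions of *Jchain*, *Igha* and *Igkc* from -1.12 to 0.034, -0.65 to 0.48 and -0.76 to 0.31. The replicate numbers did not pair the mice (12 of 75 same-number pairs correlated over 0.1, against 95 of 300 others), and the replicate block changed no other count. Depth limits *Tnfrsf17* most, at 0 to 53 counts per library.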
